A study of Mus musculus with 12 samples.

Results

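Rag1, Rag2 and Dntt encode the lymphocyte-specific proteins that build and diversify the genes of antigen receptors. They were picked by symbol from the deposited gene tables, where they are 3 of 53656 gene rows, and were followed across 4 groups of sorted mouse thymocytes. All mice carried Zfp148 fl/fl and Zfp281 fl/fl, that is, loxP sites in both copies of 2 zinc finger genes. In the double knockout (dKO) Cre recombinase under the Cd4 promoter removes the floxed parts, and controls have no Cre, so an effect of Cre itself cannot be told apart from the loss of the 2 genes. Immature CD4 thymocytes (ImCD4) were sorted as CD44low, CD4+CD8-, H2-Kb- and CD69+ cells, and immature CD8 thymocytes (ImCD8) as CD44low, CD8+CD4-, TCRb+ and CD69+ cells. Control and dKO mice gave 3 libraries each of both populations, which makes 4 groups and 12 libraries. The labels give no age for the mice.

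For the 6 ImCD8 libraries the titles and the genotype labels are opposite: those titled control are marked as Cre positive and those titled dKO as Cre negative. Groups follow the titles, so the directions in ImCD8 depend on the titles being right. The targeted genes were measured to check this. Zfp148 averaged 180 and 66.5 CPM (a gene's reads relative to all gene reads of its library, scaled as usual) in control and dKO ImCD4 and 165 and 54.9 CPM in ImCD8, and Zfp281 averaged 486 and 18.6 CPM in ImCD4 and 119 and 12.8 CPM in ImCD8. Both genes were therefore low in every library titled dKO, against the genotype labels of the ImCD8 libraries. The gates on CD4 and CD8 held in the RNA as well. Cd4 was 1089 to 1417 CPM in ImCD4 and 1.38 to 11.3 CPM in ImCD8, and Cd8a was 1606 to 1906 CPM in ImCD8 and 23.0 to 89.1 CPM in ImCD4. Zbtb7b, the CD4-lineage regulator, was at most 0.127 CPM in ImCD8. In ImCD4 Zbtb7b averaged 291 CPM in the control and 165 CPM in the dKO without overlap (edgeR adjusted p = 0.0607), and DESeq2 and limma-voom called it. RNA of Cd44, whose protein was gated low, was higher in the dKO. It averaged 24.1 and 65.3 CPM in control and dKO ImCD4 and 26.2 and 72.0 CPM in ImCD8. The libraries held 7315833 to 10943143 gene counts. Replicate 3 of each group, 4 libraries in all, stood apart on the third principal component, which carried 5.31% of the variance, and the Dntt, Rag1 and Rag2 effects of the dKO are given with and without them.

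RAG1 and RAG2 form the recombinase that cuts DNA at the signal sequences beside V, D and J segments. RAG1 carries the catalytic site, and RAG2 is the essential partner that binds histone H3 methylated at lysine 4 and is degraded when cells enter S phase. Terminal deoxynucleotidyl transferase, the product of Dntt, adds nucleotides without a template to the cut ends before they are joined, and these N nucleotides make up much of the junctional diversity of T cell receptors. In the thymus the 3 genes are transcribed at the double-negative stage, when the beta chain is rearranged, and again at the CD4+CD8+ double-positive stage, when the alpha chain is rearranged. Positive selection then shuts the recombinase genes off, so the sorted immature single-positive cells come after the main period of use. Cd4-Cre is active from about the double-positive stage on.

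Rag1 (ENSMUSG00000061311.6) lies on chromosome 2 at 101638282 to 101649501 on the minus strand of GRCm38, with 2 exons and its coding sequence within 1 of them. Rag2 (ENSMUSG00000032864.4) lies 5752 bases away at 101624718 to 101632529 on the plus strand, with up to 3 exons and again a single coding exon. Dntt (ENSMUSG00000025014.13) lies on chromosome 19 at 41029275 to 41059525 on the plus strand, with up to 12 exons. These coordinates are from the GENCODE M21 annotation, and start sites differ by some bases from those of RefSeq. The 3 promoters are shown because 1 of the genes moved in the dKO and the others were not seen to, although all are used by the same cells. Each window runs from 250 bases before to 50 bases after the start site in RefSeq on GRCm38.p6, 5′ to 3′ on the gene's own strand. The Rag1 window is chr2:101649483-101649782 (minus), that of Rag2 chr2:101624462-101624761 (plus) and that of Dntt chr19:41029025-41029324 (plus). Capitals mark every match to 6 searched motifs.
Rag1: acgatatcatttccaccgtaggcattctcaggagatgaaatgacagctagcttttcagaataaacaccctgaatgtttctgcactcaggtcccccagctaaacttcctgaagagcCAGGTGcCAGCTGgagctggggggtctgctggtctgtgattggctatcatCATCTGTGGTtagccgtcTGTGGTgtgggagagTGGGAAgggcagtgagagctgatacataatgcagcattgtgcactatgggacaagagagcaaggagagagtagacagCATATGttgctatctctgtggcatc
Rag2: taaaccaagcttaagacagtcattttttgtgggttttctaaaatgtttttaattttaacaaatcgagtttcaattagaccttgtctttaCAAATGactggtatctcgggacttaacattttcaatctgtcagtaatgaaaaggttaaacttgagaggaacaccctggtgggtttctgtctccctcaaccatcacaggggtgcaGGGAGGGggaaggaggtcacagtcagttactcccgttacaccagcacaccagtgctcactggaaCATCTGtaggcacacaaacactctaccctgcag
Dntt: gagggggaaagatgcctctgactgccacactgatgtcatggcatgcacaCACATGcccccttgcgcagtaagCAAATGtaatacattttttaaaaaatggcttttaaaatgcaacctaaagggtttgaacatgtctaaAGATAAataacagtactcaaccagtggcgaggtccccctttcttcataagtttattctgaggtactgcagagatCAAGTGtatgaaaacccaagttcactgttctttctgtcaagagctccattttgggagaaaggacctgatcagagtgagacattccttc

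The motifs, each searched on both strands, were the E-box CANNTG, the Ikaros-type TGGGAA, the GATA-type AGATAA, the Runx-type TGTGGT, the TATA box TATAAA and the G-rich GGGAGGG of the kind that ZFP148 and ZFP281 bind. The Rag1 window held 4 E-boxes, 2 Runx-type matches and 1 Ikaros-type match, and the E-box that starts 85 bases before the start site overlaps a Runx-type match. The Rag2 window held 2 E-boxes and 1 G-rich match, which starts 47 bases before the start site. The Dntt window held 3 E-boxes and 1 GATA-type match, 112 bases before the start site. TATAAA was found in none of the 3 windows, and GGGAGGG only in that of Rag2. Of all 32851 promoter windows of this length, 72.3% held an E-box, 25.6% the Ikaros-type, 11.2% the GATA-type, 16.8% the Runx-type, 13.6% the TATA box and 22.0% the G-rich letters. A match describes the letters in the window and is not evidence that a factor binds there.

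Dntt was the gene of the 3 that changed with the loss of Zfp148 and Zfp281. It was higher in the dKO in both populations, 1.73-fold in ImCD4 and 2.40-fold in ImCD8, while neither Rag1 nor Rag2 passed the test in either. Thus 1 of 3 genes was called higher and 0 lower in each comparison, at an adjusted p under 0.05 in edgeR's quasi-likelihood test over 13383 genes. For comparison, 13.4% of all tested genes were called in ImCD4 (7.26% higher, 6.16% lower) and 6.14% in ImCD8 (2.62% higher, 3.53% lower). In bulk samples, a change in the share of cells that hold a transcript and a change in the amount per cell cannot be told apart.

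In control ImCD4 cells Dntt stood at 58.6, 45.2 and 42.3 CPM in replicates 1, 2 and 3, and in dKO ImCD4 cells at 87.5, 86.2 and 78.7 CPM. The lowest dKO library was above the highest control, so the groups did not overlap. The means were 48.7 ± 8.73 and 84.1 ± 4.76 CPM (SD, n = 3), a log2 fold change of 0.79 ± 0.15 (SE; 95% interval 0.47 to 1.12) with an edgeR adjusted p of 0.00383. The counts behind these values were 399 to 498 reads per control library and 736 to 981 per dKO library. The dKO ImCD4 libraries were also the deeper ones, with 9319732 to 10943143 gene counts against 8276742 to 9173424, and they had fewer reads in no feature (10.5% to 12.9% against 13.6% to 16.4%) and fewer mitochondrial reads (0.633% to 0.961% against 1.07% to 1.31%). The part of depth and of these shares in the result was not tested. In ImCD8 the shares of reads in no feature overlapped between genotypes (10.6% to 14.0% in the control, 12.2% to 14.0% in the dKO), as did the mitochondrial shares (1.12% to 1.47% and 1.27% to 1.70%).

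In control ImCD8 cells Dntt stood at 50.8, 47.5 and 34.0 CPM, and in dKO ImCD8 cells at 119.5, 106 and 91.0 CPM. Again every dKO library was above every control library. The means were 44.1 ± 8.87 and 105.6 ± 14.3 CPM (SD, n = 3), a log2 fold change of 1.26 ± 0.15 (SE; 95% interval 0.93 to 1.59) with an edgeR adjusted p of 0.000204. By exact permutation of the 3 against 3 libraries, both comparisons gave p = 0.1, two-sided, which is the smallest p this design allows (0.4 after adjustment over 12 such tests). Without the 4 replicate 3 libraries the log2 fold change was 0.75 in ImCD4 (edgeR adjusted p = 0.000194) and 1.20 in ImCD8 (edgeR adjusted p = 1.97e-06).

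**Figure D1:**
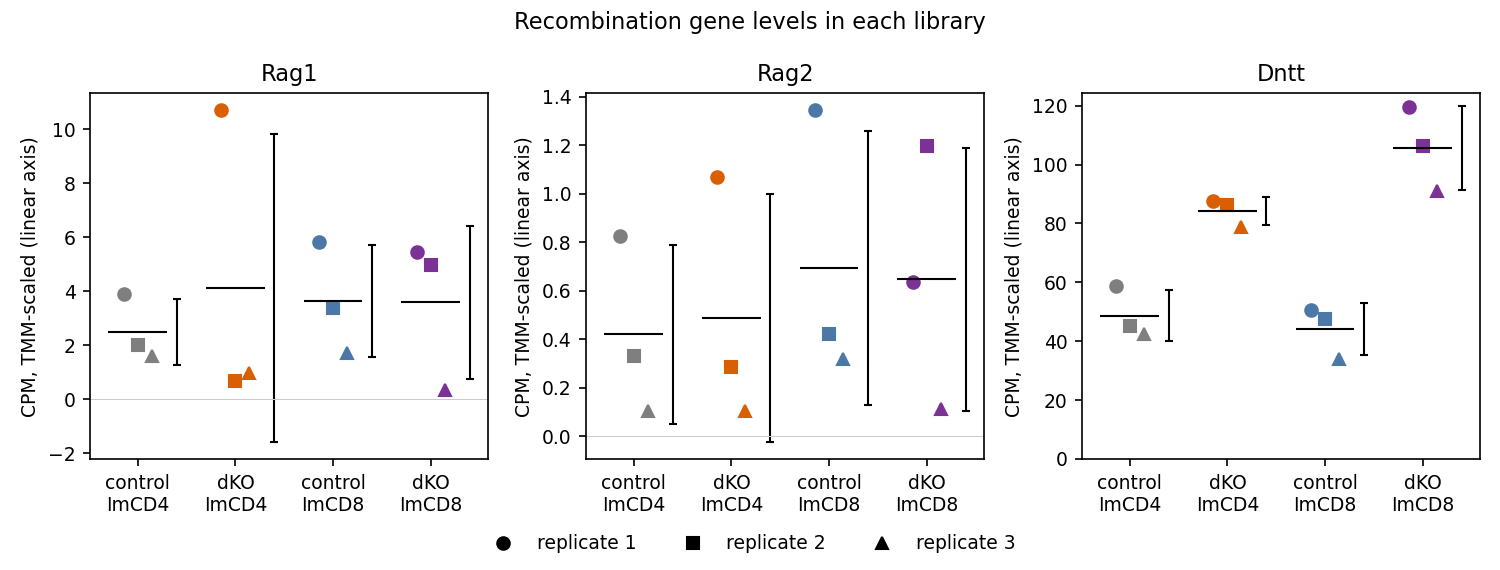
Levels of Rag1, Rag2 and Dntt in CPM (vertical axes, one per gene) in the 12 libraries by group, with each point a library and a horizontal line for the group mean and a bar for the SD (n = 3), which reaches below 0 where the SD exceeds the mean. Dntt is higher in all dKO libraries than in the controls of the same population, whereas Rag1 and Rag2 overlap between genotypes and hold single libraries far above their group, such as Rag1 at 10.7 CPM in dKO ImCD4.

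Rag1 was low and scattered. In control ImCD4 it had 33, 18 and 15 reads in replicates 1, 2 and 3, which are 3.89, 1.99 and 1.59 CPM, and in dKO ImCD4 it had 120, 7 and 9 reads, or 10.7, 0.670 and 0.962 CPM. The dKO group therefore held both the highest library of the population and its 2 lowest. Its log2 fold change of 0.77 ± 1.08 (SE; 95% interval -1.67 to 3.21) gave an edgeR adjusted p of 0.694. Without dKO ImCD4 replicate 1 the value turned to -1.59, with an edgeR adjusted p of 0.368, so its direction rests on that library. Without the 4 replicate 3 libraries it was 0.98 (edgeR adjusted p = 0.686).

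In control ImCD8 Rag1 stood at 5.83, 3.38 and 1.70 CPM, and in dKO ImCD8 at 5.46, 4.97 and 0.341 CPM. The 2 groups overlapped over most of their range, although dKO ImCD8 replicate 3 had only 3 reads. The log2 fold change was -0.01 ± 1.07 (SE; 95% interval -2.43 to 2.41; edgeR adjusted p = 0.999). This interval is wide enough to hold a change of the size seen for Dntt in either direction, so a difference was not detectable at this depth and spread. By exact permutation Rag1 gave p = 1 in ImCD4 and 0.8 in ImCD8.

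Rag2 was counted only 1 to 13 times per library and passed the filter on low counts with 3 libraries at or above its level of 1.09 CPM, the smallest number the filter allows. That filter uses library sizes before TMM scaling, so its CPM differ slightly from those given next. It stood at 0.824, 0.331 and 0.106 CPM in control ImCD4 and at 1.07, 0.287 and 0.107 CPM in dKO ImCD4. Its control ImCD8 libraries held 1.34, 0.423 and 0.319 CPM, and its dKO ImCD8 libraries 0.635, 1.20 and 0.114 CPM. The genotypes overlapped in both populations. The log2 fold changes of Rag2 were 0.31 ± 0.93 in ImCD4 (SE; 95% interval -1.68 to 2.29; edgeR adjusted p = 0.869) and -0.05 ± 0.82 in ImCD8 (95% interval -1.82 to 1.71; edgeR adjusted p = 0.990). Without the 4 replicate 3 libraries its value was 0.27 in ImCD4 and 0.04 in ImCD8, and that of Rag1 in ImCD8 was 0.15.

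The spread of Rag1 within groups was itself unusual. The SD of log2(CPM + 0.5) within groups was 1.29 for Rag1, against a median of 0.294 for the 2346 genes within 2-fold of its level, which puts it at percentile 99.79. For Rag2 it was 0.665 against a median of 0.369 over 867 genes of its level (percentile 98.27), and for Dntt 0.223 against 0.109 over 4109 genes (percentile 93.02). From lowest to highest library of a group, Rag1 spanned 2.44-fold in control ImCD4, 16.0-fold in dKO ImCD4, 3.43-fold in control ImCD8 and 16.0-fold in dKO ImCD8. Without replicate 3 these spans were 1.95, 16.0, 1.72 and 1.10, so the wide span rests on replicate 1 in dKO ImCD4 and on replicate 3 in dKO ImCD8. Dntt spanned at most 1.49-fold in any group, and at most 1.30-fold without replicate 3.

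**Figure D2:**
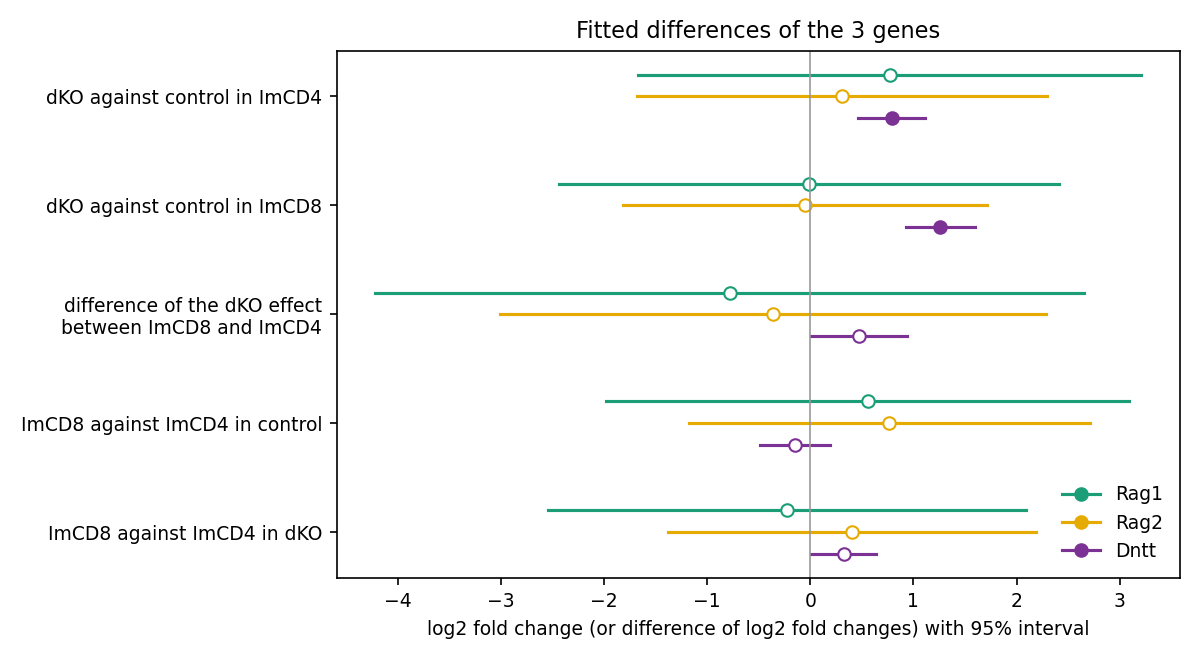
Log2 fold changes (horizontal axis) of Rag1, Rag2 and Dntt in the 5 comparisons, with points for the edgeR estimate and lines for the 95% interval. The Dntt intervals for dKO against control, 0.47 to 1.12 in ImCD4 and 0.93 to 1.59 in ImCD8, lie above 0, and those of Rag1 and Rag2 are several times wider and span 0 in every comparison.

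The rise of Dntt was larger in ImCD8 by 0.47 ± 0.21 on the log2 scale (SE; 95% interval 0.01 to 0.93), but this difference of effects did not pass the test over all genes (edgeR unadjusted p = 0.0462, adjusted p = 0.487). None of the 3 genes was called for it by edgeR or limma-voom, nor either of the 2 that DESeq2 tested, against 0.433% of all genes (0.179% higher, 0.254% lower). The differences for Rag1 and Rag2 were -0.78 ± 1.53 and -0.36 ± 1.24 (SE), with edgeR adjusted p of 0.910 and 0.959.

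Between the populations, Dntt was not called in the control, where the log2 fold change of ImCD8 against ImCD4 was -0.15 ± 0.16 (SE; 95% interval -0.48 to 0.19; edgeR adjusted p = 0.475). In the dKO all 3 ImCD8 libraries stood above all 3 ImCD4 libraries, by 0.33 ± 0.15 (SE; 95% interval 0.01 to 0.64), with an edgeR adjusted p of 0.0871 that missed the threshold. Ordered by mean, Dntt ran from control ImCD8 and control ImCD4, whose libraries overlapped, to dKO ImCD4 and then dKO ImCD8. Rag1 differed by 0.56 ± 1.13 in the control and -0.23 ± 1.03 in the dKO (SE; edgeR adjusted p = 0.717 and 0.885), and Rag2 by 0.77 ± 0.91 and 0.40 ± 0.84 (0.518 and 0.736). None of the 3 genes was called in these 2 comparisons by edgeR, DESeq2 or limma-voom, and only Dntt in the dKO had an unadjusted p under 0.05. Of all genes, 45.3% were called between the control populations (23.1% higher in ImCD8, 22.1% lower) and 43.7% between the dKO populations (22.1% higher, 21.6% lower). The Dntt call in the dKO comparison turned on single libraries: without control ImCD8 replicate 3 the edgeR adjusted p was 0.0328, and without dKO ImCD8 replicate 3 it was 0.0408.

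Per length of exon, Dntt was far the most abundant of the 3 in every group. In ImCD4 it averaged 21.3 ± 3.81 CPM per kilobase of exon in the control and 36.7 ± 2.08 in the dKO (SD, n = 3), and in ImCD8 19.2 ± 3.87 and 46.1 ± 6.23. In the same order Rag1 averaged 0.377 ± 0.186, 0.622 ± 0.864, 0.550 ± 0.314 and 0.543 ± 0.427, and Rag2 0.123 ± 0.107, 0.143 ± 0.150, 0.203 ± 0.165 and 0.189 ± 0.158. The level of Dntt was thus 35.0 to 84.8 times that of Rag1 and 94.7 to 257 times that of Rag2, on the means per group. Single libraries carry these ratios: library by library they ran from 23.6 to 769 for Rag1 and from 56.4 to 1195 for Rag2. Without dKO ImCD4 replicate 1 the ratio to Rag1 in that group was 291 in place of 59.0, and without the replicate 3 libraries the ranges were 30.8 to 62.4 and 83.0 to 191. In every library Dntt was the most abundant per length. Exon lengths were 6608, 3424 and 2292 bases for Rag1, Rag2 and Dntt, and the authors' annotation may differ from the one used for them.

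The share of Rag2 among the reads of the 2 recombinase genes did not separate the groups. Pooled over libraries, its share was 14.3% in control ImCD4 (11 of 77 reads; exact Clopper-Pearson 95% interval 7.35% to 24.1%) and 10.5% in dKO ImCD4 (16 of 152; 6.14% to 16.5%). In control ImCD8 it was 16.4% (18 of 110; 9.996% to 24.6%) and in dKO ImCD8 16.0% (19 of 119; 9.90% to 23.8%). All 4 intervals overlap, and they cover counting error only, not the spread between libraries. The pooled value of dKO ImCD4 was mostly that of replicate 1, which gave 132 of the 152 reads, at a share of 9.09%. Over single libraries the share ran from 6.25% (control ImCD4 replicate 3) to 30% (dKO ImCD4 replicate 2). Both of these rest on few reads. A further gene on the minus strand, Iftap, spans both recombinase genes and shares 80 exon bases (1.21%) with Rag1 and 208 (6.07%) with Rag2. Its own level is not analysed here. Iftap and Rag1 lie on the same strand, so reads from their shared bases cannot be told apart. For the bases shared with Rag2, on the other strand, that would need a known strand setting.

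Of the genes directly beside the 2 loci only Traf6 could be tested, and edgeR did not call it in either dKO comparison. Traf6, an adaptor in cytokine and Toll-like receptor signalling, lies 28927 bases from Rag1. It averaged 117 and 132 CPM in control and dKO ImCD4 and 93.5 and 105 CPM in ImCD8, and the genotypes did not overlap in either population. Its log2 fold changes were 0.18 in ImCD4 (edgeR unadjusted p = 0.0316, adjusted p = 0.135) and 0.17 in ImCD8 (edgeR unadjusted p = 0.0385, adjusted p = 0.231). Beside Dntt, Opalin, a gene of myelinating glia 2184 bases away, had 0 reads in all 12 libraries. Blnk, a B cell signalling adaptor 34739 bases away, averaged 0.455 to 0.933 CPM over the groups and was not tested. Beyond Traf6 lies Prr5l, named after its values were seen, which averaged 0.679 and 1.67 CPM in control and dKO ImCD4 without overlap (edgeR adjusted p = 0.0504) and 2.13 and 3.56 CPM in ImCD8 (0.225).

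Within groups, the 3 genes and the genes of double-positive cells, the stage before the sorted ones, were mostly lowest in the same library. All 3 were lowest in replicate 3 in control ImCD4, control ImCD8 and dKO ImCD8, and in dKO ImCD4 Rag2 and Dntt were. Of 10 genes of pre-selection double-positive thymocytes, 8 in control and 7 in dKO ImCD4 were lowest in replicate 3, and 8 in control and 9 in dKO ImCD8. The same held for 38.7%, 39.7%, 33.9% and 36.2% of all tested genes in that order. Arpp21, an RNA-binding protein of double-positive cells, stood at 7.77, 8.40 and 3.39 CPM in control ImCD4 and at 12.5, 9.09 and 3.10 CPM in dKO ImCD4. Its control ImCD8 libraries held 8.07, 7.47 and 2.02 CPM, and its dKO ImCD8 libraries 10.3, 15.9 and 7.62 CPM. The coreceptor that each gate excludes was lowest in replicate 3 too: Cd8a in ImCD4 stood at 67.6, 69.7 and 23.0 CPM without Cre and 89.1, 78.2 and 23.7 CPM with it. In control ImCD8, Cd4 stood at 4.71, 3.10 and 1.38 CPM, and in dKO ImCD8 at 11.3, 7.91 and 3.75 CPM. Their part in the levels of Rag1, Rag2 and Dntt was not tested.

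**Figure D3:**
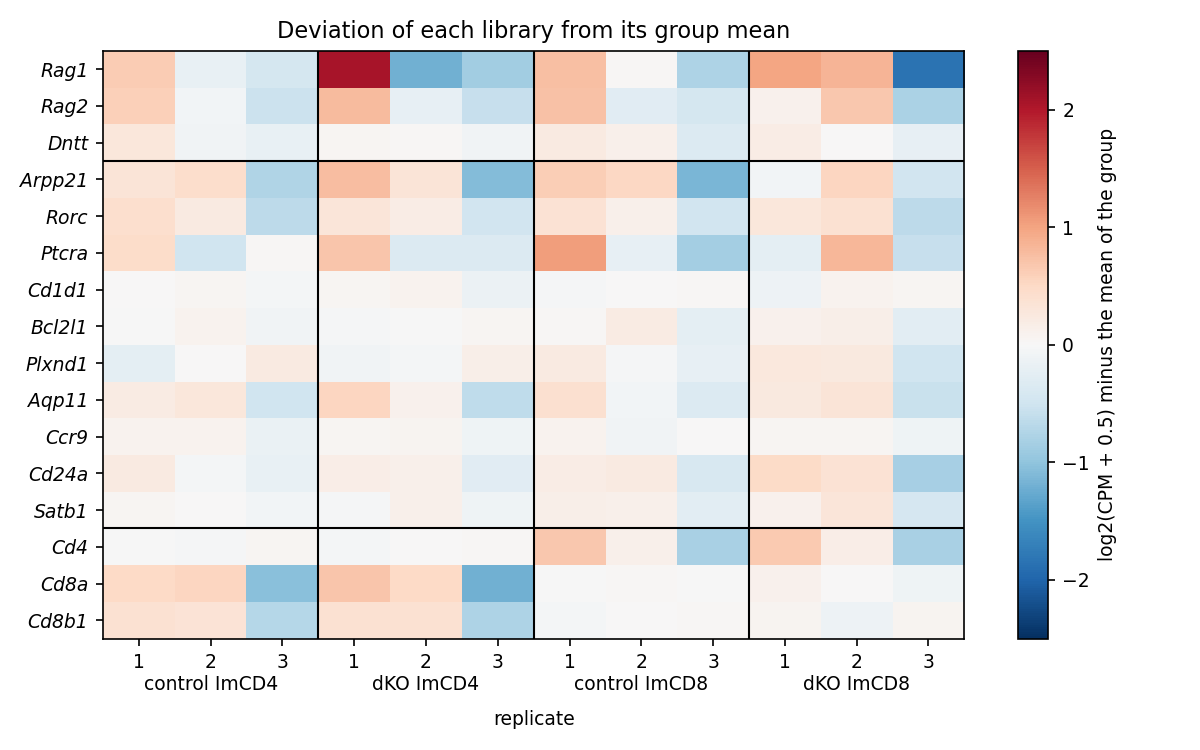
Deviation of Rag1, Rag2, Dntt and double-positive thymocyte genes from their group mean in log2(CPM + 0.5) (colour, red above and blue below) for the 3 libraries of each group, with the coreceptor genes in the lowest rows. Replicate 3 is lowest for all 3 recombination genes in 3 of the 4 groups, and for Dntt in all 4, where it deviates by -0.09 to -0.35.

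Between genotypes, 0 of the 9 double-positive genes tested were called in either population by edgeR. The shares of all tested genes called were 13.4% in ImCD4 and 6.14% in ImCD8. For the 9 genes, the median log2 fold changes were -0.11 in ImCD4 and -0.02 in ImCD8 (all genes: 0.02 and 0.01). At an unadjusted p under 0.05 edgeR had 3 of them in ImCD4 and 1 in ImCD8. DESeq2 called 1 in ImCD4 (Cd24a), limma-voom 3 (Bcl2l1, Cd1d1 and Cd24a), and neither called any in ImCD8. Their summed level ran from 8476 to 9397 CPM in control ImCD4 and from 7728 to 8942 CPM in dKO ImCD4, and from 2393 to 2955 and 2132 to 3088 CPM in control and dKO ImCD8. In ImCD8, Cd4 averaged 3.06 CPM in the control and 7.66 CPM in the dKO, a log2 fold change of 1.32 ± 0.41 (SE) with an edgeR adjusted p of 0.0953, and DESeq2 called it.

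Markers of other cell types were measured beside Dntt. Among all tested genes edgeR called 13.4% in ImCD4 and 6.14% in ImCD8, the shares to set beside the counts below. Of 8 markers of early double-negative thymocytes 4 could be tested, and 1 fell in ImCD8 (Notch3, a receptor of early thymocytes, from 13.3 to 2.02 CPM; log2 fold change -2.72, edgeR adjusted p = 1.66e-05). None of the 4 was called in ImCD4 by edgeR, DESeq2 or limma-voom, and 0 had an unadjusted p under 0.05. The summed level of the list was 321 to 374 CPM in control ImCD8 and 219 to 337 CPM in dKO ImCD8, and 33.8 to 40.6 and 28.9 to 35.6 CPM in control and dKO ImCD4, with Mpzl2, Erg and Lyl1 at or near 0. Of 10 B cell and progenitor B cell markers 4 could be tested. Of these Cd79b, a chain of the B cell receptor, rose in ImCD8 (10.1 to 25.3 CPM; log2 fold change 1.32, edgeR adjusted p = 0.00370), and none was called in ImCD4, where Cd79b gave an edgeR adjusted p of 0.0528 and was called by DESeq2 and limma-voom. There 2 of the 4 had an unadjusted p under 0.05, in opposite directions: Cd79b was higher and Vpreb1, of the surrogate light chain, lower (-0.80). Cd79a, the other chain beside Cd79b, gave -0.29 in ImCD4 and -0.27 in ImCD8 and was not called. The list summed to 311 to 403 and 366 to 498 CPM in control and dKO ImCD8 and to 75.9 to 100.1 and 66.5 to 93.6 CPM in ImCD4, most of it Ighm. Pax5, a defining factor of B cells, had at most 1 read in any group. Of 8 thymic epithelial markers 3 could be tested, and Epcam, an adhesion molecule of epithelium, rose in ImCD8 (8.93 to 16.1 CPM; log2 fold change 0.85, edgeR adjusted p = 0.0196). This call was lost without control ImCD8 replicate 1 or 3, without dKO ImCD8 replicate 1 and with only the groups compared (edgeR adjusted p up to 0.0977). Ctsl of the same list, a lysosomal protease, gave -0.37 in ImCD8 and was not called. In ImCD4 none of the 3 was called by edgeR, DESeq2 or limma-voom, and 2 had an unadjusted p under 0.05, Epcam higher (0.56) and Ctsl lower (-0.46). That list summed to 125 to 132 and 133 to 141 CPM in control and dKO ImCD8, and to 46.2 to 66.6 and 43.1 to 60.0 CPM in ImCD4. Most of the ImCD8 sum was Ly75, which averaged 85.9 and 95.1 CPM and was not called. Foxn1, Psmb11, Krt5, Krt8 and Aire averaged at most 0.333 CPM in any group. Of 8 myeloid and dendritic markers 3 could be tested, and 0 were called or had an unadjusted p under 0.05 in either population by edgeR or limma-voom, nor by DESeq2, which tested 2 of them in ImCD8. The sort required CD69 with CD4 alone in ImCD4, and CD69 with CD8 alone and TCRb in ImCD8. The part of other cell types in the Dntt result was not tested.

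Of 22 genes for cleavage cofactors and end joining 21 could be tested. In ImCD4 1 rose, 1 fell and 19 were not called (median log2 fold change 0.03), and in ImCD8 0 rose, 1 fell and 20 were not called (median -0.05). Of all tested genes, 7.26% were called higher and 6.16% lower in ImCD4, and 2.62% and 3.53% in ImCD8. Trp53bp1, which protects broken ends from resection, was the gene that fell in both, from 182 to 130 CPM in ImCD4 (-0.49 ± 0.11, SE; edgeR adjusted p = 0.0106) and from 93.0 to 53.1 CPM in ImCD8 (-0.81 ± 0.12; 0.000691). H2afx, the histone variant phosphorylated around breaks, rose from 29.0 to 49.4 CPM in ImCD4 (0.77 ± 0.18, SE; edgeR adjusted p = 0.0119) and had a log2 fold change of 0.03 in ImCD8 (0.964). The ImCD4 calls of both genes were lost in 3 of the fits that leave out a library, with edgeR adjusted p of up to 0.0587 and 0.0537: Trp53bp1 without control replicate 3, dKO replicate 1 or dKO replicate 2, and H2afx without control replicate 1, control replicate 3 or dKO replicate 2.

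Of 8 genes that act on RAG2 turnover or with TdT, 2 fell in ImCD4 and 1 in ImCD8, and none rose (median log2 fold changes -0.01 and -0.09), against 6.16% and 3.53% of all tested genes called lower. Cdk2, the kinase that marks RAG2 for degradation at S phase entry, fell in both populations, from 68.3 to 45.4 CPM in ImCD4 (-0.59 ± 0.08, SE; edgeR adjusted p = 9.68e-05) and from 68.5 to 42.0 CPM in ImCD8 (-0.70 ± 0.08; 2.89e-05). Cdkn1b, the Cdk inhibitor p27, fell in ImCD4 from 77.0 to 61.1 CPM (-0.33 ± 0.09, SE; edgeR adjusted p = 0.0263). That call was lost in 5 of the 6 fits that leave out a library of the population, all but the one without control replicate 3, with an edgeR adjusted p of up to 0.122.

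Of 18 regulators of Rag or Dntt transcription, 1 rose and 1 fell in ImCD4 and 2 rose and 3 fell in ImCD8, with medians of -0.01 and 0.03. Of all tested genes 13.4% were called in ImCD4 and 6.14% in ImCD8. Zfp608, reported in mouse as a repressor of Rag expression, fell in both, from 14.1 to 5.68 CPM in ImCD4 (log2 fold change -1.31 ± 0.24, SE; edgeR adjusted p = 0.00191) and from 3.75 to 0.543 CPM in ImCD8 (-2.66 ± 0.39; 0.000456). Gfi1, a zinc finger repressor, rose in ImCD4 from 21.9 to 34.9 CPM (0.68 ± 0.13, SE; edgeR adjusted p = 0.00227).

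In ImCD8 Id2, an inhibitor of the E proteins that bind E-boxes, fell from 195 to 77.6 CPM (-1.33 ± 0.15, SE; edgeR adjusted p = 9.11e-05). Its relative Id3 rose from 257 to 358 CPM (0.48 ± 0.09, SE; edgeR adjusted p = 0.00543), and Gata3 rose from 51.4 to 71.3 CPM (0.48 ± 0.10; 0.00632). Runx1, a core T cell factor named after its values were seen, fell from 44.8 to 36.0 CPM (-0.32 ± 0.08, SE; edgeR adjusted p = 0.0336). The Runx1 call was lost by limma-voom (adjusted p = 0.0696), with only the groups compared, without the replicate 3 libraries, and without control ImCD8 replicate 1 or 2 or dKO ImCD8 replicate 2 or 3, with an adjusted p of up to 0.155. In ImCD4 Id2 averaged 696 and 824 CPM with an edgeR adjusted p of 0.279, and its dKO effects differed between the populations by -1.57 ± 0.20 (SE; edgeR adjusted p = 0.00305).

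**Figure D4:**
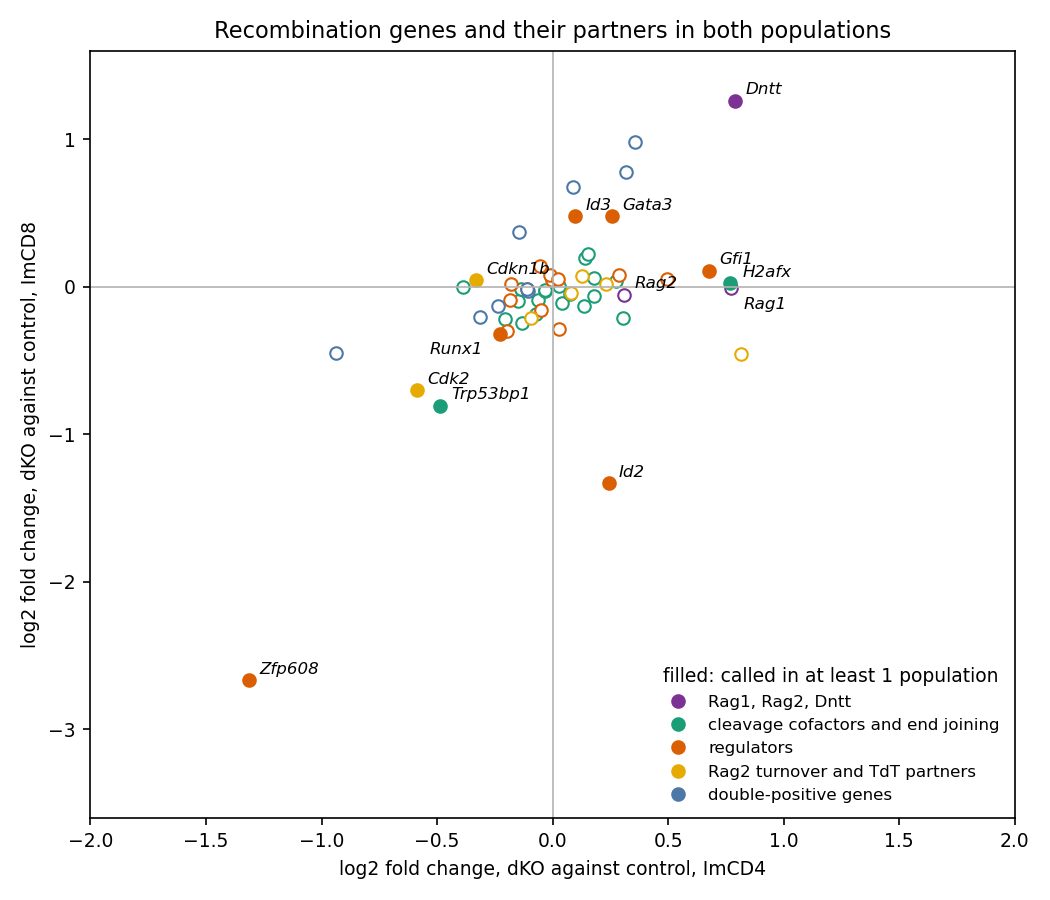
Log2 fold change of dKO against control in ImCD4 (horizontal axis) and ImCD8 (vertical axis) for the 3 recombination genes and the listed partner, regulator and double-positive genes, with filled points for genes called in at least 1 population. Dntt lies at the upper right, at 0.79 and 1.26, and Zfp608 at the lower left, at -1.31 and -2.66. Id2 lies at the lower right, at 0.24 and -1.33.

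The genes most like Dntt over the 12 libraries were sought among 8802 genes with a mean of at least 5 CPM, by the root mean square difference of log2(CPM + 0.5) profiles centred on each gene's mean. Tspan31, a tetraspanin, was nearest at 0.192, with means of 27.4 and 45.3 CPM in control and dKO ImCD4 and 27.3 and 61.2 CPM in ImCD8. Tmem176a (0.220), Ubash3b (0.260), Dip2c (0.265) and Cd44 (0.296) followed. Cd44, whose protein was gated low in all groups, averaged 24.1 and 65.3 CPM in control and dKO ImCD4 and 26.2 and 72.0 CPM in ImCD8. Dip2c was not called in either population, with edgeR adjusted p of 0.0670 and 0.0562.

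Among the same 8802 genes, those nearest to Rag1 were Gpc1 (0.798), Igsf3 (0.807), Rora (0.841), Colq (0.849) and Rhbdd1 (0.854). These distances are larger than those for Dntt, but Rag1 also varied more about its own mean. The root mean square of its centred profile was 1.07, against 0.560 for Dntt. Those nearest to Rag2 were Rhbdd1 (0.376), Trim2 (0.387), Igsf3 (0.395), Itgb3bp (0.410) and Vmac (0.410). Among the 3 recombination genes, Rag1 and Rag2 differed by 0.643, Rag2 and Dntt by 0.701 and Rag1 and Dntt by 1.15 on the same measure. Rag2 was thus nearer to Rag1 than the genes named for it. With a mean of 0.563 CPM, Rag2 was under the limit of 5 CPM for the search. Rag2 values lie near the pseudocount, which draws its profile toward a flat one.

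**Figure D5:**
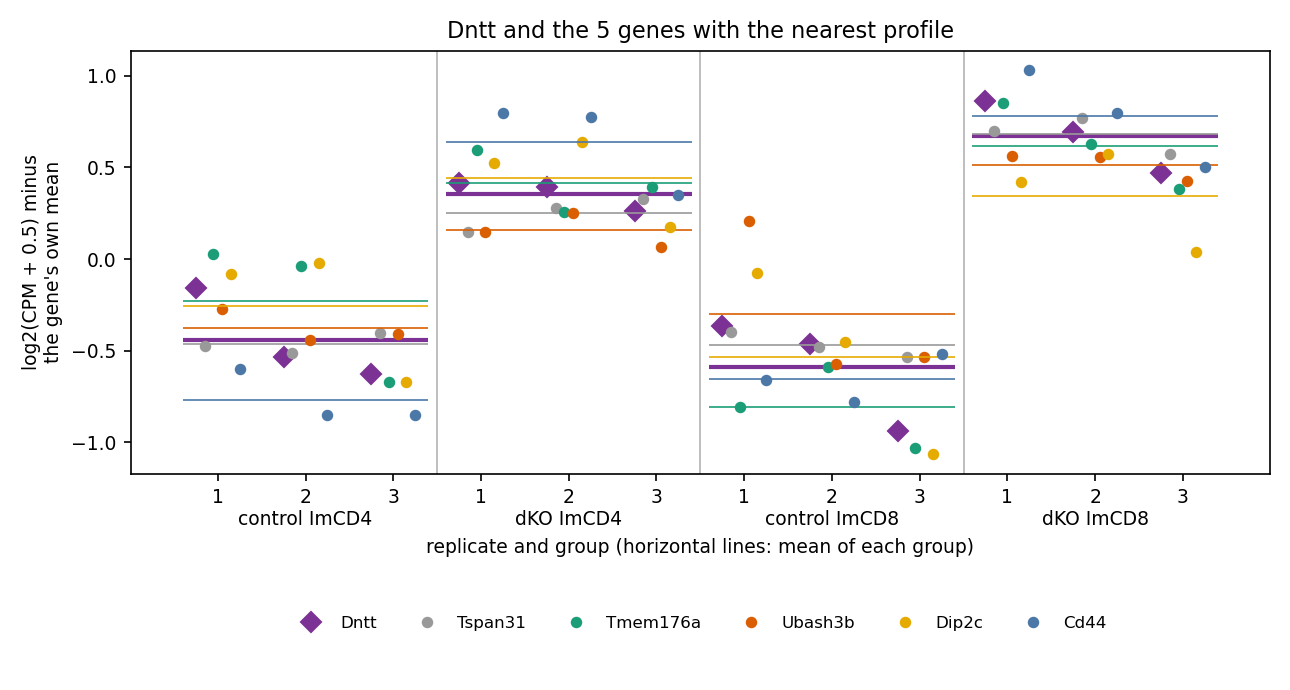
Log2(CPM + 0.5) minus each gene's own mean (vertical axis) for Dntt and the 5 genes with the nearest profiles in the 12 libraries by group, with a horizontal line for each group mean. The genes were chosen for this likeness, and Dntt and Tspan31 differ by a root mean square of 0.192 over the libraries.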

How the data were processed

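RNA was measured in 12 libraries of sorted thymocytes, 3 in each of 4 groups, made with a SMARTer low-input kit per the labels' protocols. The submitters' processing notes name cutadapt 1.18, STAR 2.6.1, HTSeq and the mm10 build. The annotation and strand setting were not given in the sources used here. What the authors deposited are whole-number read counts for each gene symbol, not normalized. The 5 summary rows were left out throughout (reads in no feature were 10.5% to 16.4% of tallied reads).

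The tests used edgeR 4.0.16 in R 4.3.3. filterByExpr (minimum count 10, minimum total 15) kept 13383 genes, with TMM scaling between libraries. All 12 libraries entered 1 robust quasi-likelihood fit of 4 group means with 8 residual degrees of freedom. Two-sided p-values were adjusted over all tested genes (Benjamini-Hochberg), and calls used 0.05. CPM values use TMM-scaled library sizes. Profiles and permutation tests used log2(CPM + 0.5). The labels do not say whether replicate libraries are from different mice. The p-values therefore reflect only the variation among these libraries, and it may be technical. Replicate numbers follow record order.

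The 3 genes and the lists were chosen with earlier results of these data known. Genes named from a list are the up to 4 smallest adjusted p per list and comparison among those called. The 5 most alike genes leave out predicted, clone-named, pseudogene, ribosomal, receptor-segment and sex-linked names. Other fits tried were DESeq2 1.42.0, limma-voom (limma 3.58.1), library size alone, RLE size factors, no filter, over 5 CPM in 3 libraries, only the groups compared and each library left out. The fits for the replicate 3 libraries were added after seeing the data.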

Additional observations from a re-analysis of the deposited data

Results flagged for a closer look

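By a test of the difference itself, the effect of the dKO differed between the populations for 58 of 13383 tested genes (0.433%). Among the genes named or listed here, 3 were called. For Id2 the log2 effect in ImCD8 minus that in ImCD4 was -1.57 ± 0.20 (SE; edgeR adjusted p = 0.00305), with 3 of 3 dKO ImCD8 libraries below all controls. For Zfp281, one of the targeted genes, it was 1.49 ± 0.19 (SE; edgeR adjusted p = 0.00170): its control level was higher in ImCD4 (486 CPM) than in ImCD8 (119 CPM), and its dKO levels were 18.6 and 12.8 CPM. For Notch3 it was -2.10 ± 0.42 (SE; edgeR adjusted p = 0.0342), with means of 3.69 and 2.40 CPM in control and dKO ImCD4 and 13.3 and 2.02 CPM in ImCD8. The Notch3 call held in 9 of 20 other fits. It was lost by limma-voom (adjusted p = 0.0598), without the replicate 3 libraries (0.0655) and in the fits that left out a single library (up to 0.0984), except those without control ImCD4 replicate 2, control ImCD8 replicate 3 or dKO ImCD8 replicate 1. The Id2 and Zfp281 calls held in all 20.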

How the results depend on the processing

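The rise of Dntt kept its direction and its call in all 21 alternative fits in both populations, with log2 fold changes of 0.70 to 0.95 in ImCD4 (adjusted p up to 0.0213) and 1.10 to 1.38 in ImCD8 (up to 0.00263). Rag1 and Rag2 were called in none. Over 34 results 697 values were recomputed, of which 634 kept direction and call, 33 lost a call, 7 gained one and 23 changed sign. No paired analysis was possible because the numbers in the labels are unique to each library.

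Leaving out single libraries moved the dKO effect in ImCD4 from -1.59 to 1.27 for Rag1 and -0.97 to 1.19 for Rag2, and in ImCD8 from -0.38 to 0.54 and -0.94 to 0.87. The difference of effects ran from -1.28 to 1.58 for Rag1 and -1.26 to 0.92 for Rag2. ImCD8 against ImCD4 ran in the control from -0.16 to 1.64 for Rag2 and -0.26 to 0.018 for Dntt, and in the dKO from -0.73 to 2.13 for Rag1, -0.50 to 1.68 for Rag2 and 0.23 to 0.42 for Dntt. The number of genes called ran from 1055 (without dKO ImCD4 replicate 2) to 1953 in ImCD4, from 473 (without control ImCD8 replicate 1) to 883 in ImCD8 and from 39 to 65 for the difference, against 1797, 822 and 58.

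Without the filter, Dntt passed the test for the difference of effects (0.49, adjusted p = 0.0344) and for ImCD8 against ImCD4 in the dKO (0.31), and Rag1 in ImCD8 came to 0.0070. That same dKO comparison of Dntt was also called with only the groups compared (0.33), without the replicate 3 libraries (0.38) and with a term for them (0.32). Rag1 turned to 0.014 in it by limma-voom. Without the replicate 3 libraries Rag1 and Rag2 in ImCD8 came to 0.15 and 0.037. Genes called for the difference numbered 140 by DESeq2, 233 without the filter, 106 without the replicate 3 libraries and 200 with a term for them, and in ImCD8 1280 without the filter and 1420 with that term. With library size alone 757 genes were called higher and 853 lower in ImCD4, against 972 and 825, and 2675 and 3546 between the control populations, against 3097 and 2961. The causes were not tested. Rag2 gave no value with over 5 CPM in 3 libraries. At 1 to 13 reads per library, counting limits what can be said of Rag2.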
